A study of Homo sapiens with 6 samples.

Results

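The glutathione S-transferases (GSTs) were followed in COV434 cells, a human line that the sample labels describe as granulosa cells of wild-type genotype. The set was given by name and held 10 genes, namely GSTP1, GSTM2, GSTM3, GSTM4, GSTO1, GSTO2, GSTK1, GSTZ1, MGST2 and MGST3, which share the conjugation of glutathione and were listed by symbol. Of these, 9 were among the 16798 genes of the gene table and 8 had enough counts for a test, out of 12368 genes tested in all. MGST2 was not analysed here. Total RNA was sequenced from 3 untreated control samples and from 3 samples treated with 15 µM 4HC, the active form of the alkylating drug cyclophosphamide, for 24 h. All 6 samples came from the same line in the same medium with serum. The sources used here do not say whether the 3 samples of a group were separate cultures, so the p-values measure the spread between these samples, which may be technical.

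GSTs join the tripeptide glutathione to electrophiles, which makes reactive compounds soluble and ready for export. Cyclophosphamide is an example of a drug with such products, since its active form breaks down to phosphoramide mustard and acrolein, both of which can be conjugated to glutathione. The cytosolic enzymes fall into classes named by Greek letters (pi for GSTP1, mu for the GSTM genes, omega for GSTO1 and GSTO2, zeta for GSTZ1), GSTK1 is the kappa enzyme of mitochondria and peroxisomes, and MGST2 and MGST3 are membrane proteins of the separate MAPEG family. Several GST genes carry an antioxidant response element, the binding site of NRF2, in their promoters.

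The promoters of 2 members that rose and that carry the core of this element, GSTP1 and GSTO1, are shown with those of MGST3, which rose without it, and of GSTK1, which did not pass the test and lacks it. Each is the 250 bases before the RefSeq start site on the plus strand of GRCh38.p14, with matches to the core (TGACNNNGC, on either strand) in capitals.
GSTP1, chr11:67583562-67583811: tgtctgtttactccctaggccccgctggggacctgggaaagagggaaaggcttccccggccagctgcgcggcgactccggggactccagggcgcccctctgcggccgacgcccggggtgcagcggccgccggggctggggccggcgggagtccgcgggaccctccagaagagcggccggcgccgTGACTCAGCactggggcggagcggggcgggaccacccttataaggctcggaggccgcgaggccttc
GSTO1, chr10:104254642-104254891: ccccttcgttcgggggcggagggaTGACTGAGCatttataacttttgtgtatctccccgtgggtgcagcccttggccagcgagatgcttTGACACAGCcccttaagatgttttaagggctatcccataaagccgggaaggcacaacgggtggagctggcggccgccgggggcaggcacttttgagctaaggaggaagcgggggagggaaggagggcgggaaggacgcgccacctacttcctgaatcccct
MGST3, chr1:165630984-165631233: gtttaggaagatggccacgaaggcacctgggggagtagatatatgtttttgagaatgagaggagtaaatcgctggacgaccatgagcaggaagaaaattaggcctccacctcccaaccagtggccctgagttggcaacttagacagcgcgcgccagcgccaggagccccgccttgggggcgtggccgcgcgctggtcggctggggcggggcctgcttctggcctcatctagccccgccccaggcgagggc
GSTK1, chr7:143263191-143263440: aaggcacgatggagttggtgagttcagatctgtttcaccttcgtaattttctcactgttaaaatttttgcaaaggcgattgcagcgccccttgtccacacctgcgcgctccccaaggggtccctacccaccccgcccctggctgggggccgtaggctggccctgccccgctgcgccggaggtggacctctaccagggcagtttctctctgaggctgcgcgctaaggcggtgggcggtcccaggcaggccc
The match in GSTP1 began 66 bases before the start site, and its first bases were at the same time a match to the AP-1 motif TGANTCA. GSTO1 held 2 matches, 226 and 161 bases before a RefSeq start site that lies inside the gene span of the deposited table. The promoters of the other 7 members with a gene row, GSTM3 and GSTM4 among those that rose, held no match to the core in this window, while GSTA4, a family gene outside the set that was not called (log2 fold change 0.13), held 1, 9 bases before its start site. Over all 35116 promoters in RefSeq, 10.9% held the core, 6.57% the AP-1 motif and 42.6% the GC box GGGCGG, which occurred in GSTP1, GSTM2, GSTM4, GSTO1, GSTO2, GSTK1, GSTZ1 and MGST3 but not in GSTM3. A single p53 half-site (RRRCWWGYYY) was in none of the members' windows and in 5.57% of all promoters. A match of letters is a description of the sequence and does not show that a factor was bound.

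The expected counts of a sample, which estimate the reads of each gene, summed to between 16133786 and 16702316. Levels within a gene are given as TMM-normalized CPM, which are counts scaled to library size, and levels between genes as TPM, which are scaled to transcript length as well. Of the granulosa markers, FOXL2, FSHR and CYP19A1 had at most 3 counts in any sample, INHA was at 0.483 to 1.17 CPM and AMH at 3.80 to 6.53 CPM, so that 3 of the 5 defining markers of the labelled cell type were at or near 0. Of 6 further granulosa markers in the table, HSD17B1 was at 12.01 to 15.5 CPM and the other 5 were below 1 CPM. SMARCA2 and SMARCA4 were listed as a pair of genes lost in small cell carcinoma of the ovary. SMARCA2 had at most 4 counts, while SMARCA4 was at 21.1 to 28.4 CPM. Mutation and protein of these genes were not examined here. The marker lists of epithelial, endothelial and liver cells summed to at most 1.15 CPM in any sample, and that of leukocytes to at most 2.66 CPM. The 5 fibroblast markers summed to 112 to 121 CPM in control and 110 to 121 CPM in 4HC, mostly from DCN and LUM. None of the markers tested passed the test between the groups in edgeR or DESeq2, with 1 (SMARCA4) at an unadjusted p under 0.05 in edgeR and 0 in DESeq2.

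In control cells GSTP1 was by far the most abundant member. Its level was 1189, 1190 and 1165 TPM in the 3 controls, which placed it at rank 107 of all genes in the table. MGST3 followed with 179 ± 6.08 TPM (SD, n = 3), so that GSTP1 was 6.61 times as high. Below these came GSTK1 with 107 ± 3.40 TPM, GSTO1 with 57.1 ± 6.80 TPM and GSTZ1 with 43.4 ± 0.376 TPM. The mu class was low, with 9.43 ± 0.191 TPM for GSTM4 and 8.06 ± 0.401 TPM for GSTM3. GSTO2 was at 1.33 ± 0.0723 TPM and GSTM2 at 0.26 ± 0.213 TPM. No neighbours in this order had overlapping ranges over the 3 controls, and the order was the same with the deposited FPKM values.

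**Figure D1:**
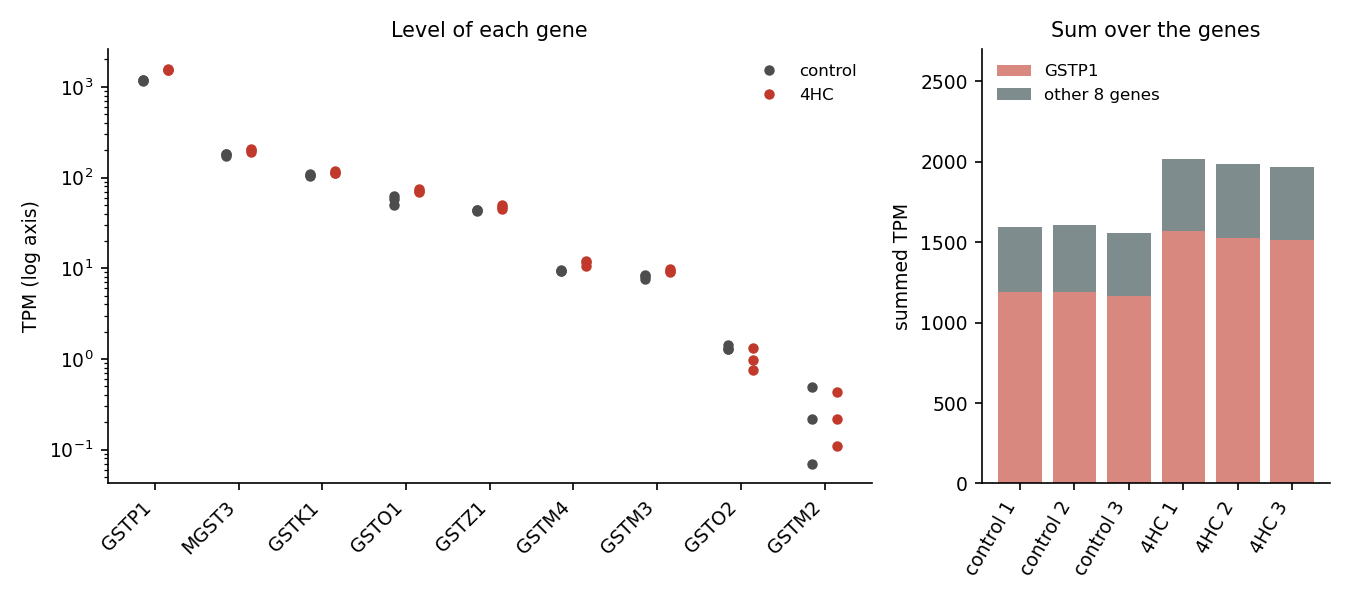
Left, TPM of the 9 genes in each sample on a log axis, in the order of their control level, with control samples in grey and 4HC-treated samples in red. Right, the TPM of GSTP1 and of the other 8 genes stacked for each sample; GSTP1 made up 74.0% to 74.8% of the sum in control and 76.9% to 77.9% in 4HC.

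GSTP1 also held most of the summed messenger level of the set. The TPM of the 9 genes summed to 1592, 1609 and 1558 in the controls and to 2015, 1983 and 1967 in the 4HC-treated samples, and these groups did not overlap. GSTP1 took 74.5% ± 0.463 of the sum in control and 77.2% ± 0.590 in 4HC (SD, n = 3), a difference of 2.76 percentage points. Without GSTP1 the sum was 405 ± 13.4 TPM in control and 452 ± 6.63 TPM in 4HC. In each of these 3 comparisons the groups were separate, and the exact permutation test (two-sided) gave p = 0.1, the smallest value that 3 samples against 3 can give.

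Among the 8 members tested between 4HC and control, 5 were upregulated in edgeR's quasi-likelihood test with Benjamini-Hochberg adjustment, at a threshold of 0.05 (GSTP1, GSTO1, GSTM4, GSTM3 and MGST3) and none was downregulated. Over all 12368 genes tested, 36.4% were called, 19.2% higher and 17.1% lower. At an unadjusted p under 0.05 no member was lower in edgeR or in DESeq2 (0 of 8 each). The share of all genes lower at that unadjusted threshold is not given here, so this count is no result about the members. In 7 of the 8 tested members all 4HC-treated samples lay above all controls, against 23.4% of all genes tested, and in none were they all below, against 21.9%. The median log2 fold change of the 8 was 0.21, beside 0.0047 over all genes tested. The changes were small: none of the 8 reached the fold change of 2 with an unadjusted p under 0.05 that the methods of the study used for DEGs. In the edgeR fit 1.15% of all genes tested did. The paper reports far more DEGs, and the reason for this difference was not tested. In bulk RNA a change in the share of cells that express a gene and a change in its RNA per cell cannot be told apart.

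**Figure D2:**
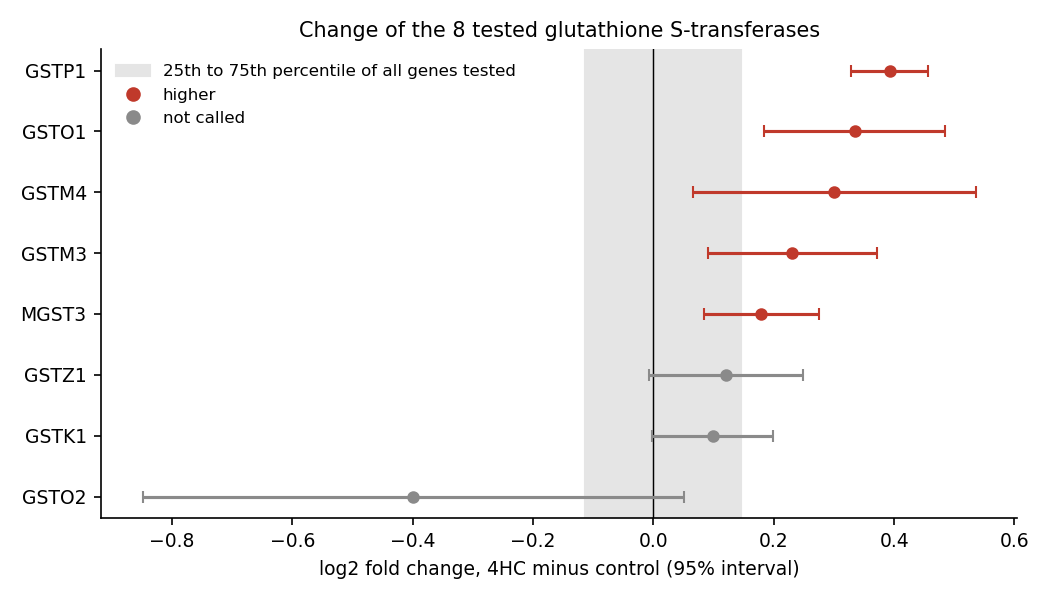
Log2 fold change of each tested member (4HC minus control) with its 95% interval, red where called higher and grey where not called; the grey band spans the 25th to the 75th percentile of all genes tested (-0.11 to 0.15). The points of the 5 called members lie to the right of the band, from 0.18 for MGST3 to 0.39 for GSTP1.

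GSTP1, the pi class enzyme, which also binds and restrains the stress kinase JNK, had the smallest adjusted p-value of the members. Its gene (NCBI Gene 2950) lies on chromosome 11 of GRCh38, from 67583812 to 67586653 on the plus strand. It was at 344, 347 and 334 CPM in the 3 controls, against 456, 448 and 440 CPM after 4HC. Every treated sample was above every control, with a gap between the groups wider than the range within either. The log2 fold change was 0.39 (SE 0.0321; edgeR quasi-likelihood test, adjusted p = 9.32e-15), a 1.31-fold increase with a 95% interval of 1.26 to 1.37. This placed GSTP1 at the 92.3rd percentile of log2 fold changes. With its 5537 to 7562 counts a sample, GSTP1 was the deepest measured member, and its transcript shared no 50-base stretch with another gene in GENCODE release 29.

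The omega class, whose members reduce dehydroascorbate and remove glutathione from protein thiols, was divided. GSTO1 and GSTO2 lie on chromosome 10 in the same direction, 170 bases apart, with GSTO1 (NCBI Gene 9446) from 104254173 to 104267455 and GSTO2 (NCBI Gene 119391) from 104267626 to 104304950. GSTO1 was at 19.5, 21.2 and 16.5 CPM in the 3 controls, against 23.1, 24.1 and 24.9 CPM after 4HC. The lowest treated sample stood above the highest control, and the controls were more widely spread than the treated samples. Its log2 fold change was 0.33 (SE 0.0749; edgeR quasi-likelihood test, adjusted p = 0.000309). GSTO2 was at 2.16, 2.46 and 2.23 CPM in the 3 controls, against 2.23, 1.295 and 1.65 CPM after 4HC. Replicate 1 of 4HC lay within the controls and the other two below them, so that the groups overlapped. The log2 fold change of GSTO2 was -0.40, with a 95% interval of -0.85 to 0.05 (adjusted p = 0.164 in the same fit), and rested on 21.1 to 40.0 counts a sample. It was -0.63 without replicate 1 of 4HC and -0.23 without replicate 2, in neither case past the threshold.

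GSTO2 had the largest absolute log2 fold change among the tested members, though it was not called and led GSTP1 only narrowly (-0.399 against 0.392). GSTP1 led in 6 of the 17 alternatives that gave both values, among them library size as the only scaling (0.413 for GSTP1 against -0.378) and the fits without replicate 2 of the controls (0.402 against -0.343), replicate 2 of 4HC (0.391 against -0.233) or replicate 3 of 4HC (0.406 against -0.367). The 3 tested genes with the most similar profile to it over the 6 samples, by the root mean square (RMS) difference in centred log2 CPM, were TRABD2B (0.066), CDHR3 (0.0736) and CAMK1D (0.0831), all at low levels of 0.714 to 2.04 CPM in control. For GSTP1, added to this search after its values were seen, they were RIPK1 (0.019), SHANK3 (0.0198) and PTK7 (0.021), with log2 fold changes of 0.37 to 0.38.

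Of the mu class, 2 members were upregulated at low levels. GSTM3, an enzyme known from testis and brain (NCBI Gene 2947, chromosome 1, 109725743 to 109741038, minus strand), was at 18.6, 20.3 and 20.3 CPM in the 3 controls, against 23.9, 23.2 and 22.5 CPM after 4HC. All treated samples were above all controls. Its log2 fold change was 0.23 (SE 0.0701; edgeR quasi-likelihood test, adjusted p = 0.00740), and the call was lost with DESeq2 (adjusted p = 0.0571) and without replicate 1 of the controls (log2 fold change 0.19, adjusted p = 0.0613 in edgeR).

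GSTM4 (NCBI Gene 2948, chromosome 1, 109656076 to 109665497, plus strand) was at 6.53, 6.71 and 6.88 CPM in the 3 controls, against 8.45, 7.71 and 8.63 CPM after 4HC. The groups did not overlap, although replicate 2 of 4HC lay nearer to the controls than the other two. Its log2 fold change of 0.30 (SE 0.117) passed the threshold narrowly, with an adjusted p of 0.0380 in edgeR's quasi-likelihood test and of 0.151 in DESeq2. The call was also lost in edgeR when any 1 control or replicate 1 or 3 of 4HC was left out, with log2 fold changes of 0.27 to 0.32 and adjusted p-values of 0.0633 to 0.103.

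GSTM2 (NCBI Gene 2946), 2559 bases beyond GSTM4 on the same strand, had 2.00, 0.86 and 4.52 expected counts in the controls and 4.00, 1.00 and 2.00 in 4HC. These values are near the floor of 3 counts that a count of 0 allows, the groups overlapped, and the gene was not tested. In GENCODE release 29, 74.5% of the 50-base stretches of the GSTM2 transcript occur in other genes, mainly GSTM1 and GSTM4. For GSTM4 the share was 18.6%, mainly with GSTM1 and GSTM2. For GSTM3 it was 10.2%, all with AL158847.1, and either strand was counted. The GSTM3 transcript searched had 1565 bases, while the length over which its reads could start was 3832 bases. Part of its sequence was therefore not searched. Reads from stretches shared by GSTM1, GSTM2 and GSTM4 may have been divided between these genes by the counting. The values of GSTM4, and of GSTM2 in particular, are therefore less certain than those of GSTP1, GSTK1, GSTZ1 and MGST3. In the transcripts searched, these 4 genes shared no stretch. For MGST3 the search covered NM_004528, which had more counts, and not XM_005245174, which was higher in TPM. Whether AL158847.1 took reads of GSTM3 was not tested.

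GSTK1 and GSTZ1 were slightly higher in all treated samples but did not pass the test. GSTK1, which acts in mitochondria and peroxisomes (NCBI Gene 373156, chromosome 7, 143263441 to 143269115, plus strand), was at 50.4, 53.5 and 51.9 CPM in the 3 controls, against 56.9, 54.6 and 55.2 CPM after 4HC. Its log2 fold change was 0.10, with a 95% interval of -0.0021 to 0.20 (edgeR quasi-likelihood test, adjusted p = 0.121). GSTZ1, the maleylacetoacetate isomerase of tyrosine breakdown (NCBI Gene 2954, chromosome 14, 77321002 to 77331597, plus strand), was at 25.5, 25.9 and 25.1 CPM in the 3 controls, against 26.3, 29.3 and 27.5 CPM after 4HC. Its log2 fold change was 0.12, with a 95% interval of -0.0077 to 0.25 (adjusted p = 0.138 in the same fit). With the length trend removed, an alternative added after the data were seen, the log2 fold changes were 0.05 for GSTK1 and 0.07 for GSTZ1 (adjusted p = 0.493 and 0.396 in edgeR). The 95% intervals without that correction leave room for an increase of up to 1.15-fold for GSTK1 and 1.19-fold for GSTZ1.

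MGST3, a membrane protein of the MAPEG family that conjugates leukotriene A4 and reduces lipid hydroperoxides with glutathione, was upregulated (NCBI Gene 4259, chromosome 1, 165631234 to 165656767, plus strand). It was at 59.8, 58.7 and 56.6 CPM in the 3 controls, against 64.3, 66.8 and 67.1 CPM after 4HC. The groups were separate in all 6 samples. The log2 fold change was 0.18 (SE 0.0477; edgeR quasi-likelihood test, adjusted p = 0.00227), a 1.13-fold increase with a 95% interval of 1.06 to 1.21.

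**Figure D3:**
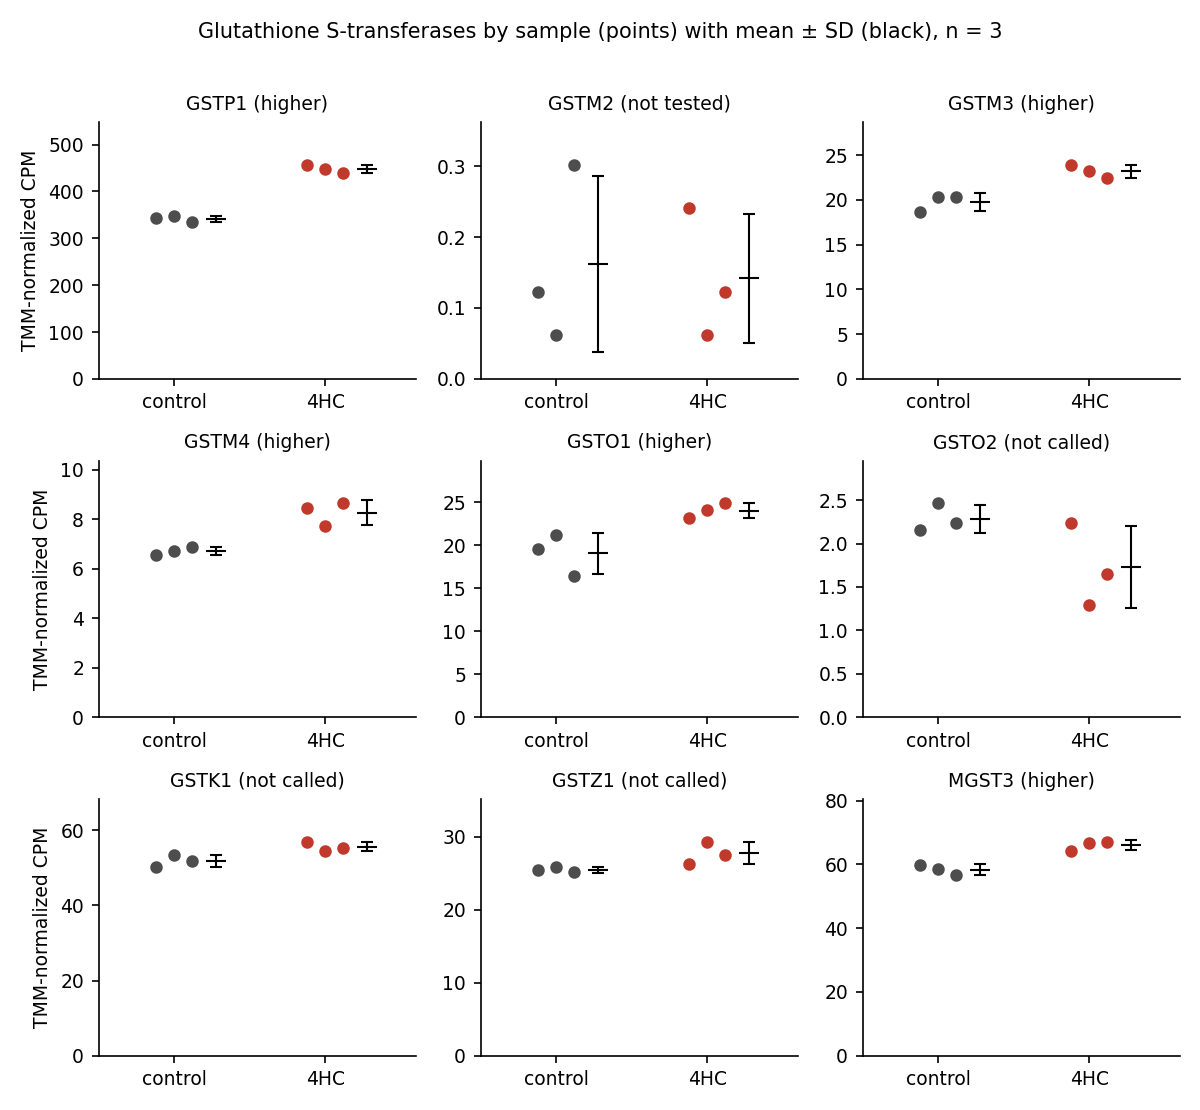
TMM-normalized CPM of each gene in the 3 control samples (grey) and the 3 samples treated with 4HC (red), with the mean ± SD in black and each axis starting at 0. The groups are separate in 7 panels and overlap in those of GSTM2 and GSTO2.

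Several members have short transcripts, and short transcripts as a whole shifted slightly upwards in 4HC. The effective length (the length over which a read can start) was 452 bases for GSTP1, 519 for MGST3 and 522 for GSTO1. Genes with an effective length below 500 bases had a median log2 fold change of 0.05, and 27.8% of the 291 such genes were called higher and 8.25% lower. Genes above 4000 bases had a median of -0.02, with 17.9% called higher and 22.3% lower. When the trend with length was removed, an alternative added after the data were seen, the log2 fold change was 0.33 for GSTP1, 0.28 for GSTO1, 0.23 for GSTM3 and 0.12 for MGST3, all still called, while GSTM4 (0.26, adjusted p = 0.0770 in edgeR) was no longer called. Removing a trend with GC content in the same way left GSTP1 at 0.31, and GSTM4 again missed the threshold (0.27, adjusted p = 0.0535 in edgeR).

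The summed TPM of most members came mainly from 1 transcript. GSTP1 (NM_000852) and GSTM3 (NM_000849) had 1 transcript each in the transcript table. The most abundant transcript made up 97.5% of the summed TPM of GSTO1 in control, 93.1% of GSTZ1, 86.9% of GSTK1, 83.3% of GSTO2 and 70.8% of GSTM4. MGST3 was divided between XM_005245174 with 116 ± 7.78 TPM and NM_004528 with 62.7 ± 3.27 TPM in control (SD, n = 3). XM_005245174 took 64.9% of the gene's TPM in control and 63.8% in 4HC. By mean expected counts NM_004528 was the higher, with 569 against 385 in control and 657 against 425 in 4HC. NM_004528 was at 65.9, 59.3 and 62.8 TPM in the controls and at 71.9, 68.4 and 74.7 TPM in 4HC, without overlap, while the ranges of XM_005245174 overlapped.

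Among the 14 member transcripts tested, that of GSTP1 was the only one called (log2 fold change 0.39, edgeR quasi-likelihood test over transcripts, adjusted p = 0.00440), where 1.29% of the 42216 transcripts tested were called, 0.706% higher and 0.587% lower. The call was lost without replicate 1 of the controls or replicate 2 of 4HC (adjusted p = 0.05004 and 0.05005 in edgeR), with log2 fold changes of 0.40 and 0.39. A further 3 member transcripts were higher at an unadjusted p under 0.05 and none was lower. The share of all transcripts at that unadjusted threshold is not given here, so this count is no result about the members. For GSTP1, which had 1 transcript, the counts were those of the gene, so this is the same data in a fit over all transcripts. For members with several transcripts the division of reads between those that share exons is an estimate. Their values are less certain than those of genes.

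The remaining family genes, in a list of 28 that also held proteins with a GST fold, did not move in 1 direction. Of 9 that could be tested, 4 were upregulated and 2 downregulated, beside 19.2% and 17.1% of all genes tested, with a median log2 fold change of 0.08. GSTT1, a theta class enzyme, rose from 34.4 ± 2.46 to 41.1 ± 1.08 CPM (SD, n = 3; log2 fold change 0.26, edgeR quasi-likelihood test, adjusted p = 0.000351). GSTCD, a protein with a GST-like C-terminal domain, rose by 0.20 and the mitochondrial protein GDAP1 by 0.17 on the log2 scale. EEF1G, a translation elongation factor subunit with a GST fold, rose by 0.08. CLIC4, an intracellular channel protein with a GST fold, fell by 0.23, and EEF1E1, of the multi-tRNA synthetase complex, fell by 0.15. The alpha class, known as the main GSTs of liver, was at or near 0, with at most 1 count of GSTA1 or GSTA2 in any sample, while GSTA4, which conjugates 4-hydroxynonenal, was at 11.7 ± 1.03 CPM in control and 12.7 ± 0.797 CPM in 4HC and was not called. GSTM1 had at most 1.48 counts and MGST1 at most 3.

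Of these calls, those of GDAP1, EEF1G and EEF1E1 depended on single samples. The GDAP1 call was lost without replicate 1 or 2 of the controls or replicate 1 or 3 of 4HC (log2 fold change 0.12 to 0.16), that of EEF1G without replicate 1 or 3 of the controls or replicate 2 of 4HC (0.07 to 0.08), and that of EEF1E1 without replicate 1 or 3 of either group (-0.15 to -0.13).

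Glutathione conjugates are cleaved by gamma-glutamyl transferases and peptidases and exported by ABC transporters. In a list of 20 such genes, 10 were tested, of which 3 were upregulated and 2 downregulated, with a median log2 fold change of -0.02. These counts are close to the background of 19.2% higher and 17.1% lower over all genes tested and are no result about the list. GGT1, which removes the glutamyl residue, had the largest change, from 2.41 ± 0.476 to 4.56 ± 0.616 CPM (SD, n = 3; log2 fold change 0.92, SE 0.18; edgeR quasi-likelihood test, adjusted p = 4.45e-05). It has close copies on its chromosome, between which reads may have been divided, and this was not tested. Over the 18 alternatives the log2 fold change of GGT1 was 0.56 to 1.03, and it was called in all 18. The lowest value was that on log2(FPKM + 1), where the added 1 weighs more at low levels such as that of GGT1. The related GGT7 rose by 0.22 and the exporter ABCC5 by 0.12 on the log2 scale. The exporter ABCC4 fell from 75.7 ± 0.427 to 62.6 ± 1.68 CPM (log2 fold change -0.27, adjusted p = 3.32e-06 in the same fit), and the dipeptidase CNDP2 fell by 0.17 on the log2 scale. ABCC1, the transporter best known for glutathione conjugates, was at 82.3 ± 4.09 and 82.7 ± 2.83 CPM. The GGT7 call was lost without replicate 1 or 3 of the controls or replicate 2 of 4HC (0.19 to 0.22), and that of ABCC5 without replicate 2 of the controls or replicate 1 of 4HC (0.09 to 0.10).

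Glutathione itself is made by glutamate-cysteine ligase (GCLC and GCLM) and glutathione synthetase (GSS). All 14 genes listed for its supply were tested, and 2 were upregulated and 3 downregulated, with a median log2 fold change of 0.05. Together this is about the share called among all genes (36.4%), so the values below describe single genes and not the supply of glutathione as a whole. GSS rose from 108 ± 2.12 to 137 ± 5.62 CPM (SD, n = 3; log2 fold change 0.35, edgeR quasi-likelihood test, adjusted p = 5.97e-10). The gamma-glutamylcyclotransferase GGCT rose by 0.19 on the log2 scale. CHAC1, which degrades glutathione, fell from 9.29 ± 1.15 to 6.78 ± 0.568 CPM (log2 fold change -0.46, adjusted p = 0.00164 in the same fit). IDH1, a source of NADPH, fell by 0.34 and SLC3A2, the heavy chain of the cystine transporter, by 0.12 on the log2 scale. GCLC and GCLM were not called, at 22.7 ± 1.27 and 51.0 ± 2.71 CPM in control and 23.9 ± 0.440 and 53.7 ± 1.402 CPM in 4HC. The SLC3A2 call was lost without replicate 2 of the controls or replicate 2 or 3 of 4HC (-0.11 to -0.09).

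Of 18 enzymes that handle aldehydes or thiols alongside glutathione, 14 were tested. In edgeR 4 were upregulated and 0 downregulated, with 1 (GLRX3) lower at an unadjusted p under 0.05, and in DESeq2 3 were upregulated and 0 downregulated. Over all genes tested edgeR called 19.2% higher and 17.1% lower, and DESeq2 called 1717 higher and 1623 lower of 12368. The median log2 fold change was -0.0034. AKR7A2, an aldehyde reductase, rose from 62.4 ± 2.47 to 77.1 ± 0.509 CPM (SD, n = 3; log2 fold change 0.31, edgeR quasi-likelihood test, adjusted p = 4.06e-07). HAGH, the glyoxalase that releases glutathione from lactoylglutathione, rose by 0.23 on the log2 scale, and the aldo-keto reductases AKR1A1 and AKR1B1 by 0.13 and 0.10. The AKR1A1 call was lost without replicate 3 of the controls or replicate 1 or 2 of 4HC (0.11 to 0.12), and that of AKR1B1 without any 1 sample other than replicate 2 of the controls (0.08 to 0.11).

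**Figure D4:**
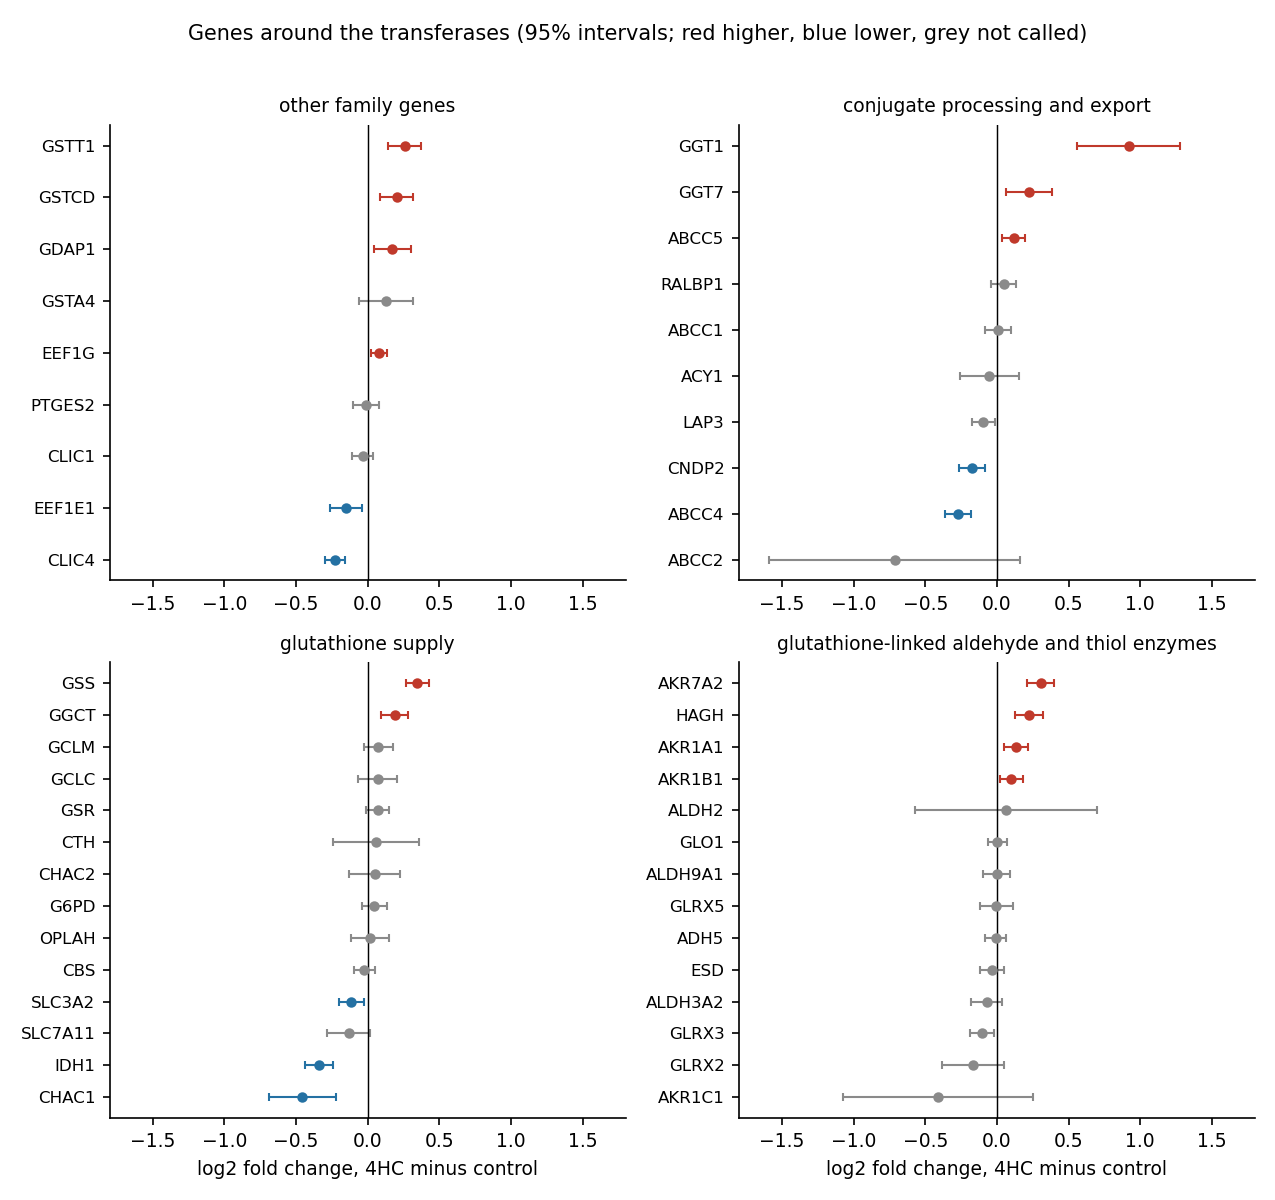
Log2 fold change (4HC minus control) with its 95% interval for the tested genes of the 4 lists, red where called higher, blue where called lower and grey where not called. GGT1 has the largest called change (0.92), and each list holds genes on both sides of 0.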

How the data were processed

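Total RNA of 3 control and 3 4HC-treated samples was analysed. Reads had been filtered with SOAPnuke, and the submitters' processing notes name HISAT2, Bowtie2, RSEM 1.3.1, DESeq2 1.4.5 and GRCh38.p13. The authors deposited an expected count, a TPM value and an FPKM value for each gene and transcript. 85.5% of gene counts were whole. The authors' own fold changes and p-values were not used, nor was a second gene table with the same values.

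Expected counts were rounded and tested with edgeR 4.0.16 (R 4.3.3; TMM, filterByExpr, quasi-likelihood test, condition as the only term), with Benjamini-Hochberg adjustment over all genes tested and a threshold of 0.05. Alternatives were DESeq2 1.42.0, other scalings and filters, the replicate number as a block, limma 3.58.1 on log2 TPM or FPKM with a pseudocount of 1 or 0.1, and leaving out each sample. Only the main edgeR fit was tried on simulated counts, and the alternatives were not. The planted changes were larger than those of the called members, so the trial does not cover changes of their size. Replicates of a group differed beyond sampling noise in all pairs (chi-square 1.70 to 2.46 per gene).

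The members and lists were chosen with earlier results of these data known. Named were all members, their transcripts with at least 1 TPM, up to 6 called genes per list by absolute log2 fold change, and for the member with the largest change the 3 genes with the most similar profile. Genes outside this rule (uncalled list genes and GSTP1's neighbours in profile) were named after their values were seen. Promoters came from RefSeq (GRCh38.p14), and shared stretches from GENCODE release 29.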

Additional observations from a re-analysis of the deposited data

How the results depend on the processing

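GSTP1, GSTO1 and MGST3 were called higher under all 18 alternatives, with log2 fold changes of 0.31 to 0.41, 0.24 to 0.42 and 0.12 to 0.20. GSTM3 was called in 15 and GSTM4 in 10 of 18, and no tested member changed direction. The number of members called higher was 5, and became 3 with DESeq2, 0 once a fold change of 2 was required, and 3 to 5 with 1 sample left out. These settings also called fewer of all genes. DESeq2 called 1717 of 12368 higher against 2379 in the main fit, and 1942 to 2267 were higher with 1 sample left out. The fold change of 2 was reached by 1.15% in either direction. On log2(FPKM + 1) GSTK1 (0.11, adjusted p = 0.0401 from limma) and GSTZ1 (0.14, adjusted p = 0.0304) also passed, on a scale where 61.8% of all calls were higher against 52.9%, and with the GC trend removed they were at 0.06 and 0.07 and did not pass.

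Of the other family genes, 2 were called higher on log2(TPM + 1) without a filter and 1 lower with DESeq2 or with library size as the only scaling, and with 1 sample left out 2 to 3 were higher and 1 to 2 lower. Over all genes, 1589 were higher on that scale, 1623 lower with DESeq2 and 1735 lower with library size only. With 1 sample left out 1942 to 2267 were higher and 1680 to 1979 lower. Of the aldehyde and thiol enzymes, 2 were called higher once a trend with length or GC content was removed, and 2 to 4 with 1 sample left out. Over all genes, 2261 were higher with the length trend removed and 2372 with the GC trend removed. In that list 1 gene (GLRX3) was called lower with DESeq2's size factors, a minimum of 10 counts, limma on log2(TPM + 1) with or without a filter or on log2(TPM + 0.1), or the length trend removed, and 0 to 1 with 1 sample left out. Named calls that some alternatives lost were AKR1B1 (kept in 4 of 18), GDAP1 (9), SLC3A2 (10), EEF1E1 (11), EEF1G (12), ABCC5 (12), GGT7 (13) and AKR1A1 (13). Leaving out 1 sample gave 0 to 1 member transcripts called higher.

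With the replicate block 5 members were called higher and 0 member transcripts, GSTP1's transcript having an adjusted p of 0.0982 in edgeR, and over all genes 2259 were higher and 1954 lower against 2379 and 2118 without it. SLC3A2 was also lost with it. Samples sharing a number deviated together with correlations of only 0.0192, 0.0771 and 0.0216. These values give little sign of pairing by number, but 3 samples a group cannot settle whether the samples were paired.

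Depth limits GSTO2 and GSTM2 most. The causes of these shifts were not tested.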
